A study of Mus musculus with 64 samples.

Results

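The 30 genes described here make, take up, store and export cholesterol. They were chosen by symbol and were followed through a liver time course of mice in which Acsf3 was knocked down. All 30 were among the 55487 genes of the count table, and 29 were among the 10097 genes with enough counts to be tested. Idi1, an isomerase of the mevalonate pathway, was the exception. The knockdown group, sh-Acsf3, consisted of male C57BL/6J mice that had received an AAV8 vector carrying an shRNA against Acsf3, which encodes a mitochondrial acyl-CoA synthetase. The group it was set against, sh-Ctl, consisted of the matching male C57BL/6J controls, and what their injection carried is not given in the sources used here. All mice ate ad libitum, and livers were taken 4 weeks after the injection. Each group had 4 libraries at each of 8 zeitgeber times (ZT) 3 h apart, ZT0 to ZT21, which gave 32 sh-Acsf3 and 32 sh-Ctl libraries. By convention ZT0 is lights-on, and the light schedule is not given in the sources used here. The knockdown was liver-specific by design. The labels do not say that replicates were separate mice, so p-values measure the spread between these libraries, which may be partly technical.

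Liver cells adjust cholesterol synthesis to their sterol content. When sterols in the endoplasmic reticulum are low, SCAP carries the transcription factor SREBP2 to the Golgi, where it is cut and released to switch on the genes of synthesis and uptake, and when sterols are high the INSIG proteins hold SCAP back. Oxysterols, which accumulate with cholesterol, activate the liver X receptors (LXR), which switch on the exporters, among them the ABCG5 and ABCG8 half-transporters that join to pump sterols into bile.

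Depth was 0.839 to 9.35 M (mega) UMIs per library in sh-Acsf3 (median 2.03 M) and 1.48 to 6.06 M in sh-Ctl (median 3.13 M). Acsf3 itself stood at 2.54 ± 1.70 CPM in sh-Acsf3 and 11.3 ± 2.59 CPM in sh-Ctl (SD over all libraries of a group, n = 32 each). Its log2 difference was -2.23 ± 0.13 (SE, edgeR adjusted p = 1.8e-21). For the other genes, a ± beside a CPM mean over all times is the SD within times. CPM are counts per M UMIs after TMM scaling, and because UMIs were counted from transcript ends they do not grow with transcript length. The summed level of 5 hepatocyte markers (Alb, Ttr, Apoa1, Tat and Cps1) was 94470 to 133300 CPM in sh-Acsf3 and 55740 to 126800 CPM in sh-Ctl. Saa1, an acute-phase transcript, exceeded 1000 CPM in 0 sh-Acsf3 and 4 sh-Ctl libraries (ZT9 replicate 1 and replicate 2 of ZT12, ZT15 and ZT18), and pancreas enzyme transcripts exceeded 100 CPM in 6 sh-Acsf3 and 2 sh-Ctl libraries. Every one of the 29 tested genes had at least 1 UMI in every library.

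Averaged over the day, the knockdown livers had less mRNA of the paired sterol exporters and no called change in any gene of synthesis. Abcg5 and Abcg8 fell by 0.33 ± 0.10 and 0.31 ± 0.080 on the log2 scale (SE), to 79.7% and 80.8% of the sh-Ctl level. These were the 2 genes called among the 29 at an adjusted p below 0.05 (edgeR quasi-likelihood test, Benjamini-Hochberg over all genes tested), and both were lower. Over all genes, 14.5% were called, 8.26% higher and 6.21% lower. The 2 lower calls were 6.90% of the 29 and 0 were called higher, so the count of lower calls was near that background. Of the 18 tested synthesis genes 17 had a difference above 0, with a median of 0.097 over the 18 on the log2 scale against -0.0085 over all genes tested. None of them passed the test (1 at an unadjusted p below 0.05), and DESeq2 and limma-voom called 0 of them as well. With no gene filter 3 of them were called higher, Hmgcs1, Fdps and Nsdhl. Without replicate 2 of every group neither Abcg5 nor Abcg8 was called. In whole liver, fewer cells of a type and less RNA per cell cannot be told apart.

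**Figure D1:**
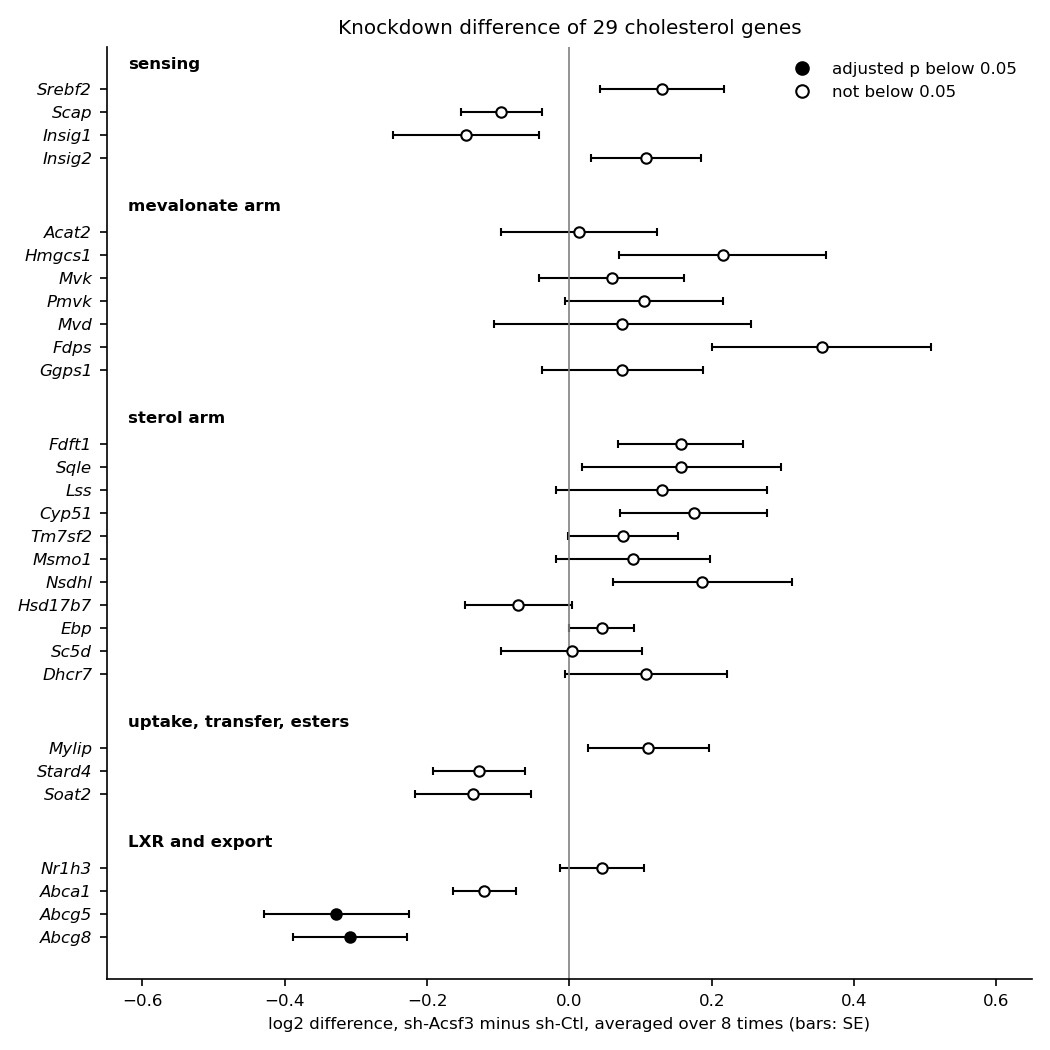
Log2 difference of each tested gene, sh-Acsf3 minus sh-Ctl, averaged over 8 times, grouped by role (x axis; points are edgeR estimates from 32 and 32 libraries, bars are SE). Abcg5 and Abcg8 are the 2 filled points, at -0.33 and -0.31, and most synthesis genes lie between 0 and 0.22 with bars that reach toward 0.

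Among the sensing genes none passed the test. Srebf2, which encodes SREBP2, ranged from 6.76 to 22.2 CPM in sh-Acsf3 (median 12.2) and from 6.66 to 16.4 CPM in sh-Ctl (median 12.4), with a log2 difference of 0.13 ± 0.086. Scap, its escort, was at 79.6 ± 15.0 CPM in sh-Acsf3 and 85.4 ± 10.4 CPM in sh-Ctl, and its difference of -0.095 ± 0.057 lay below 0 at 7 of 8 times. Insig1 and Insig2, which encode the retention proteins, had opposite signs, -0.15 ± 0.10 and 0.11 ± 0.077. None of these 4 differences was separable from the spread between libraries.

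In the mevalonate arm, which leads from acetyl-CoA to farnesyl diphosphate, all 7 tested genes lay above 0 and none passed. Fdps, the farnesyl diphosphate synthase, had the largest difference among all 29 genes in the upward direction, 0.35 ± 0.15. It ranged from 28.4 to 163.4 CPM in sh-Acsf3 (median 68.4) and from 19.5 to 155.1 CPM in sh-Ctl (median 57.6), and its p was 0.0256 before and 0.119 after adjustment (edgeR). Without replicate 4 of every group its difference was 0.14 (edgeR adjusted p = 0.618), and Mylip, Srebf2, Insig2, Cyp51 and Hmgcs1 then lay above it. Hmgcs1, which makes HMG-CoA, stood at 131 ± 65.7 CPM in sh-Acsf3 and 116 ± 60.4 CPM in sh-Ctl, a difference of 0.22 ± 0.15 that was 0.12 without replicate 3 of sh-Acsf3 at ZT0. The ranges of both genes overlapped across nearly their whole width. The thiolase Acat2, the kinases Mvk and Pmvk, the decarboxylase Mvd and the geranylgeranyl diphosphate synthase Ggps1 differed by 0.013 to 0.10, and Acat2, the smallest of these, was at -0.013 without replicate 1 of sh-Acsf3 at ZT6. Idi1 averaged 1.99 CPM in sh-Acsf3 and 1.92 CPM in sh-Ctl, and with no gene filter its difference was 0.068 ± 0.18.

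In the sterol arm, which runs from squalene to cholesterol, 10 of 11 genes lay above 0 and none passed the test. Nsdhl, a sterol dehydrogenase, had the largest difference, 0.19 ± 0.13, followed by the lanosterol demethylase Cyp51 at 0.17 ± 0.10. The squalene-forming and squalene-oxidising enzymes Fdft1 and Sqle both differed by 0.16, with SEs of 0.088 and 0.14. Lss, the lanosterol cyclase, Dhcr7, a late sterol reductase, and the methyl oxidase Msmo1 differed by 0.13, 0.11 and 0.089. Tm7sf2 and Ebp, which reduce and isomerise sterol intermediates, differed by 0.075 and 0.045, and the desaturase Sc5d by 0.0031, which was -0.026 without replicate 4 of sh-Ctl at ZT21. Hsd17b7, a sterol ketoreductase, was the gene below 0, at -0.072 ± 0.075. Without replicate 4 of every group, 9 of 19 synthesis genes lay above 0 when averaged over the day, and their median was -0.0015. The upward lean of the day average therefore rested on the libraries numbered 4. At single times in that fit, the medians over 18 synthesis genes ran from -0.32 at ZT0 to 0.25 at ZT12.

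Of the genes that set uptake, transfer and storage, none passed. Mylip, an LXR-induced ubiquitin ligase that removes lipoprotein receptors, differed by 0.11 ± 0.085. Stard4, a cytosolic sterol carrier, was at 46.6 ± 9.31 CPM in sh-Acsf3 and 50.9 ± 10.6 CPM in sh-Ctl, a difference of -0.13 ± 0.064 (edgeR adjusted p = 0.192). Soat2, which esterifies cholesterol in hepatocytes, differed by -0.14 ± 0.081.

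The export genes held both calls. Abcg5 ranged from 6.91 to 32.5 CPM in sh-Acsf3 (median 13.8) and from 7.27 to 36.7 CPM in sh-Ctl (median 18.5), with an edgeR adjusted p of 0.0215. Abcg8 ranged from 12.1 to 68.9 CPM in sh-Acsf3 (median 21.9) and from 10.3 to 91.4 CPM in sh-Ctl (median 27.1), with an adjusted p of 0.00444. The ranges overlapped across the day, and within times the groups of Abcg5 overlapped at all 8 and those of Abcg8 at 7. For each gene 24 of 32 sh-Acsf3 libraries were below the sh-Ctl mean of their time, and each was lower in sh-Acsf3 at 6 of 8 times. Uncalled genes came close, with 23 of 32 for Stard4 and Abca1 and 22 for Scap, Insig1, Soat2 and Hsd17b7. Scap and Insig1 were lower at 7 of 8 times, so these counts do not set the pair apart. Abca1, which loads cholesterol onto apolipoprotein A-I, was at 102 ± 13.0 CPM in sh-Acsf3 and 112.5 ± 13.2 CPM in sh-Ctl. Its difference of -0.12 ± 0.044 lay below 0 at 8 of 8 times but missed the threshold (edgeR adjusted p = 0.0571). Nr1h3, which encodes LXR alpha, differed by 0.046 ± 0.059. Both Abcg calls held in 64 of 64 fits that left out 1 library each and without the Saa1-high libraries, while Abca1 passed in 14 of those 64 fits. Without replicate 2 of every group, Abcg5 was at -0.20 (adjusted p = 0.289) and Abcg8 at -0.22 (adjusted p = 0.120), and neither passed. Without replicate 3 of every group, without the libraries high in pancreas transcripts, or with library size as the only scaling, Abcg8 passed and Abcg5 did not (edgeR adjusted p = 0.0767, 0.0665 and 0.0948).

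Abcg5 and Abcg8 lie head to head on chromosome 17, on opposite strands, and the 109 bases between their RefSeq starts are shown because they are all that separates the start sites of the 2 genes that changed. They were read on the strand of Abcg8 from RefSeq GRCm38.p6, at chr17:84683012-84683120, with the AGATAA letters of the GATA motif (found here as TTATCT on the other strand) in capitals.
Abcg5 to Abcg8: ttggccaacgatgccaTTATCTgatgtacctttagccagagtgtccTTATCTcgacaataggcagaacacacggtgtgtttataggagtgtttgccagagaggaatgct
The letters occur at 2 places between the starts. Over all 32851 RefSeq promoter windows, which run from 250 bases before a start to 50 bases after it, 11.2% hold AGATAA on either strand. Of the 33 windows of the genes described here 3 do, or 9.09%, those of Abcg5, Abcg8 and Insig2. These windows are longer than the 109 bases shown, so neither share is a like measure for that stretch. In the GENCODE M21 annotation an upstream exon of Abcg8 overlaps Abcg5, while the annotated 3' ends of the 2 genes, near which this method counts, lie 42.1 kb apart. Whether the counting used strand is not given in the sources used here.

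The pair had its own daily course in both groups. Abcg8 peaked near ZT9, with a 24 h amplitude of 0.64 ± 0.11 log2 units at 8.82 h in sh-Acsf3 and 0.91 ± 0.094 at 9.15 h in sh-Ctl. Abcg5 peaked later, with an amplitude of 0.61 ± 0.11 at 11.8 h in sh-Acsf3 and 0.62 ± 0.10 at 11.8 h in sh-Ctl. From the lowest to the highest time, the mean of Abcg8 differed 3.74-fold in sh-Acsf3 and 3.94-fold in sh-Ctl. No rhythm difference between sh-Acsf3 and sh-Ctl was called for either gene (edgeR adjusted p = 0.9995 for both).

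At ZT0, Abcg8 stood at 23.5, 21.0, 21.9 and 18.9 CPM in sh-Acsf3 and at 18.9, 23.8, 20.4 and 20.7 CPM in sh-Ctl. At ZT3 it stood at 20.1, 15.4, 25.2 and 19.8 CPM in sh-Acsf3 and at 20.0, 34.9, 32.4 and 22.5 CPM in sh-Ctl. At ZT6 it stood at 23.2, 32.5, 22.2 and 32.8 CPM in sh-Acsf3 and at 31.9, 47.7, 40.7 and 49.6 CPM in sh-Ctl. The groups interleaved at ZT0, and at ZT6 only the lowest sh-Ctl library fell within the sh-Acsf3 range. At the ZT9 peak the values were 50.3, 63.2, 39.3 and 68.9 CPM in sh-Acsf3 and 44.8, 67.7, 53.1 and 91.4 CPM in sh-Ctl. At ZT12 they were 29.2, 40.1, 32.5 and 55.0 CPM in sh-Acsf3 and 43.8, 56.0, 59.5 and 65.1 CPM in sh-Ctl. At ZT15 they were 19.7, 17.1, 19.0 and 18.8 CPM in sh-Acsf3 and 25.6, 46.0, 28.7 and 23.1 CPM in sh-Ctl. ZT15 was the time with no overlap, every sh-Acsf3 value being the lower, and its log2 difference was -0.71 ± 0.22 (edgeR adjusted p = 0.488). At ZT18 Abcg8 stood at 13.2, 15.4, 18.6 and 12.1 CPM in sh-Acsf3 and at 10.3, 20.9, 21.3 and 12.8 CPM in sh-Ctl. At ZT21 it stood at 16.3, 20.7, 24.2 and 21.8 CPM in sh-Acsf3 and at 17.9, 17.6, 16.0 and 24.1 CPM in sh-Ctl. At both of these late times the groups overlapped.

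For Abcg5 the largest differences were at ZT6, ZT3 and ZT15. At ZT6 it stood at 14.0, 13.5, 8.11 and 19.6 CPM in sh-Acsf3 and at 18.1, 30.9, 13.8 and 26.3 CPM in sh-Ctl, a log2 difference of -0.70 ± 0.27. At ZT15 it stood at 16.9, 13.6, 16.9 and 21.8 CPM in sh-Acsf3 and at 21.4, 31.5, 26.3 and 25.5 CPM in sh-Ctl, a difference of -0.62 ± 0.27. In each case 1 or more libraries of the groups overlapped. At ZT9 the means were 23.8 ± 6.27 CPM in sh-Acsf3 and 23.0 ± 9.34 CPM in sh-Ctl (SD, n = 4 each), and at ZT21 they were 12.0 ± 4.15 CPM in sh-Acsf3 and 12.3 ± 2.37 CPM in sh-Ctl. Its differences at these 2 times, 0.036 and 0.062, were the 2 that lay above 0.

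**Figure D2:**
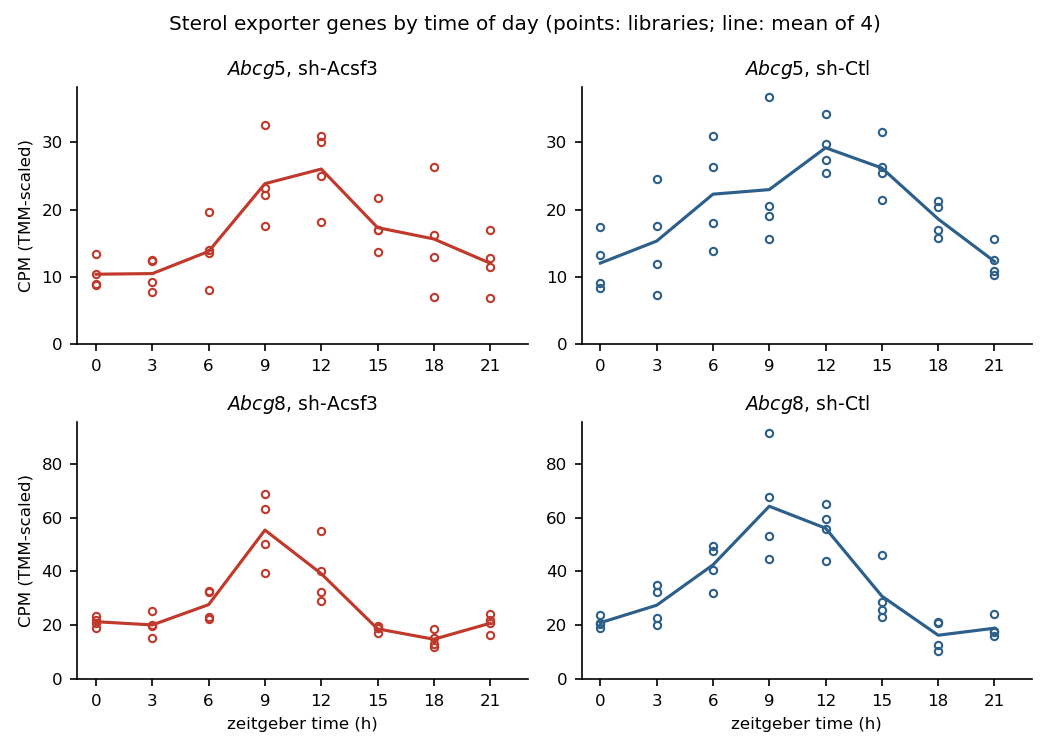
Abcg5 (top) and Abcg8 (bottom) by zeitgeber time in sh-Acsf3 (left) and sh-Ctl (right); y axes are TMM-scaled CPM, points are libraries and lines join the means of 4. Abcg8 peaked at ZT9 in both groups, with a mean of 55.4 CPM in sh-Acsf3 and 64.2 CPM in sh-Ctl, and the Abcg5 means were highest at ZT12, 26.0 and 29.2 CPM.

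Over the whole set, 10 genes had a 24 h rhythm in sh-Acsf3, where 19.6% of all genes did, and 12 had one in sh-Ctl, where 19.4% did (edgeR, cosine model). The same 9 genes were called in both, which is 9 of 10 and 9 of 12. Over all genes, 1182 were called in both, of 1981 called in sh-Acsf3 and 1954 called in sh-Ctl. Those 1182 were 11.7% of all genes tested, where the 9 were out of 29. These 9 were Scap, Insig2, Hmgcs1, Pmvk, Dhcr7, Stard4, Soat2, Abcg5 and Abcg8. Ebp was called in sh-Acsf3 alone, and Mvk, Fdft1 and Lss were called in sh-Ctl alone. The difference in rhythm was tested directly and was called for 0 of the 29 genes and for 0 of all 10097. At an unadjusted p below 0.05 it was met by 0 of the 29 genes and by 4.27% of all genes, and DESeq2 and limma-voom called 0 of the 29 as well. A test for any difference among the 8 times called 10 genes in sh-Acsf3 and 9 in sh-Ctl, where 13.1% and 12.6% of all genes were called.

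The rhythmic genes peaked in 2 parts of the day. Sensing and synthesis genes peaked between late night and the middle of the light period, and the genes of sterol carriage, esterification and export peaked around ZT9 to ZT12. Soat2 peaked at 10.1 h in sh-Acsf3 and 11.1 h in sh-Ctl, and Stard4 at 11.4 h and 10.5 h. Dhcr7 peaked at 23.6 h in sh-Acsf3 and 0.69 h in sh-Ctl, and Scap at 5.23 h in both. The amplitudes of these 4 genes were 0.40, 0.36, 0.33 and 0.30 log2 units in sh-Acsf3 and 0.45, 0.27, 0.35 and 0.26 in sh-Ctl. In sh-Acsf3 Ebp peaked at 22.3 h, and in sh-Ctl Lss, Fdft1 and Mvk peaked at 23.6, 2.23 and 3.70 h.

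**Figure D3:**
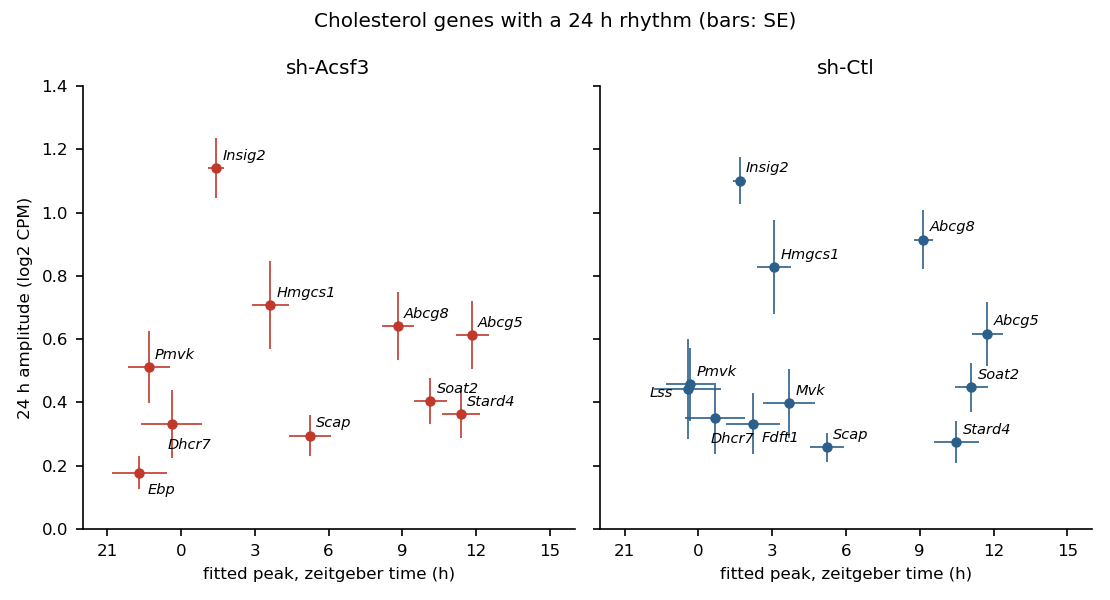
Fitted peak time (x axis, zeitgeber hours, drawn so that 21 h stands left of 0 h) and 24 h amplitude (y axis, log2 CPM) of the 10 rhythmic genes in sh-Acsf3 (left) and the 12 in sh-Ctl (right); bars are SE. Insig2 had the largest amplitude in both groups, 1.14 and 1.10, and Abcg8, Abcg5, Soat2 and Stard4 lie between 8.82 and 11.8 h in both.

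Insig2 had the strongest rhythm of the set. Its amplitude was 1.14 ± 0.096 log2 units with a peak at 1.44 h in sh-Acsf3 (edgeR adjusted p = 3.3e-16) and 1.10 ± 0.075 with a peak at 1.69 h in sh-Ctl (adjusted p = 6.3e-16). At ZT0 it stood at 230.6, 182, 201 and 134 CPM in sh-Acsf3 and at 244, 207, 181 and 141 CPM in sh-Ctl. At ZT15 it stood at 40.6, 43.6, 35.4 and 38.8 CPM in sh-Acsf3 and at 41.1, 47.4, 35.2 and 32.8 CPM in sh-Ctl. All libraries of ZT0 lay above all libraries of ZT15 in each group, and the means differed 4.72-fold in sh-Acsf3 and 4.94-fold in sh-Ctl. ZT0 and ZT15 had the highest and lowest means of each group, so this separation follows in part from the choice of times. At ZT18, on the rising side, Insig2 stood at 91.9, 83.5, 106 and 72.9 CPM in sh-Acsf3 and at 37.5, 78.7, 62.9 and 68.8 CPM in sh-Ctl. The difference, 0.51 ± 0.22, missed the threshold (edgeR adjusted p = 0.804), and 1 library of sh-Ctl lay within the sh-Acsf3 range. Insig1 had no called 24 h rhythm, with amplitudes of 0.27 in sh-Acsf3 and 0.19 in sh-Ctl, although the test for any difference among times passed in sh-Ctl (edgeR adjusted p = 0.0348). It was highest at ZT18 in both groups, at 170.2 and 180.1 CPM, and lowest at ZT9 in sh-Acsf3 (88.7 CPM) and ZT12 in sh-Ctl (84.4 CPM).

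Among the synthesis genes Hmgcs1 had the largest amplitude, 0.71 ± 0.14 at 3.64 h in sh-Acsf3 and 0.83 ± 0.15 at 3.08 h in sh-Ctl. At ZT0 it stood at 111, 139.7, 408 and 81.2 CPM in sh-Acsf3 and at 286, 167, 201.5 and 102 CPM in sh-Ctl. At ZT15 it stood at 46.4, 59.5, 44.4 and 60.6 CPM in sh-Acsf3 and at 41.9, 33.0, 71.9 and 52.4 CPM in sh-Ctl. All libraries of ZT15 lay below all libraries of ZT0 in each group, and at ZT0 the 2 ends of the sh-Acsf3 group were 81.2 and 408 CPM. ZT15 had the lowest mean of each group and ZT0 the highest in sh-Ctl, so this separation too follows in part from the choice of times. Pmvk, a kinase of the mevalonate arm, had an amplitude of 0.51 ± 0.11 at 22.7 h in sh-Acsf3 and 0.46 ± 0.11 at 23.7 h in sh-Ctl. It stood highest at ZT21 in sh-Acsf3, at 41.5, 78.4, 35.0 and 60.1 CPM, when sh-Ctl libraries were at 34.1, 58.7, 35.7 and 17.7 CPM. At ZT0 it was at 51.8, 24.3, 56.6 and 22.8 CPM in sh-Acsf3 and at its highest in sh-Ctl, at 80.1, 56.3, 54.5 and 26.5 CPM. The groups overlapped at both times.

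**Figure D4:**
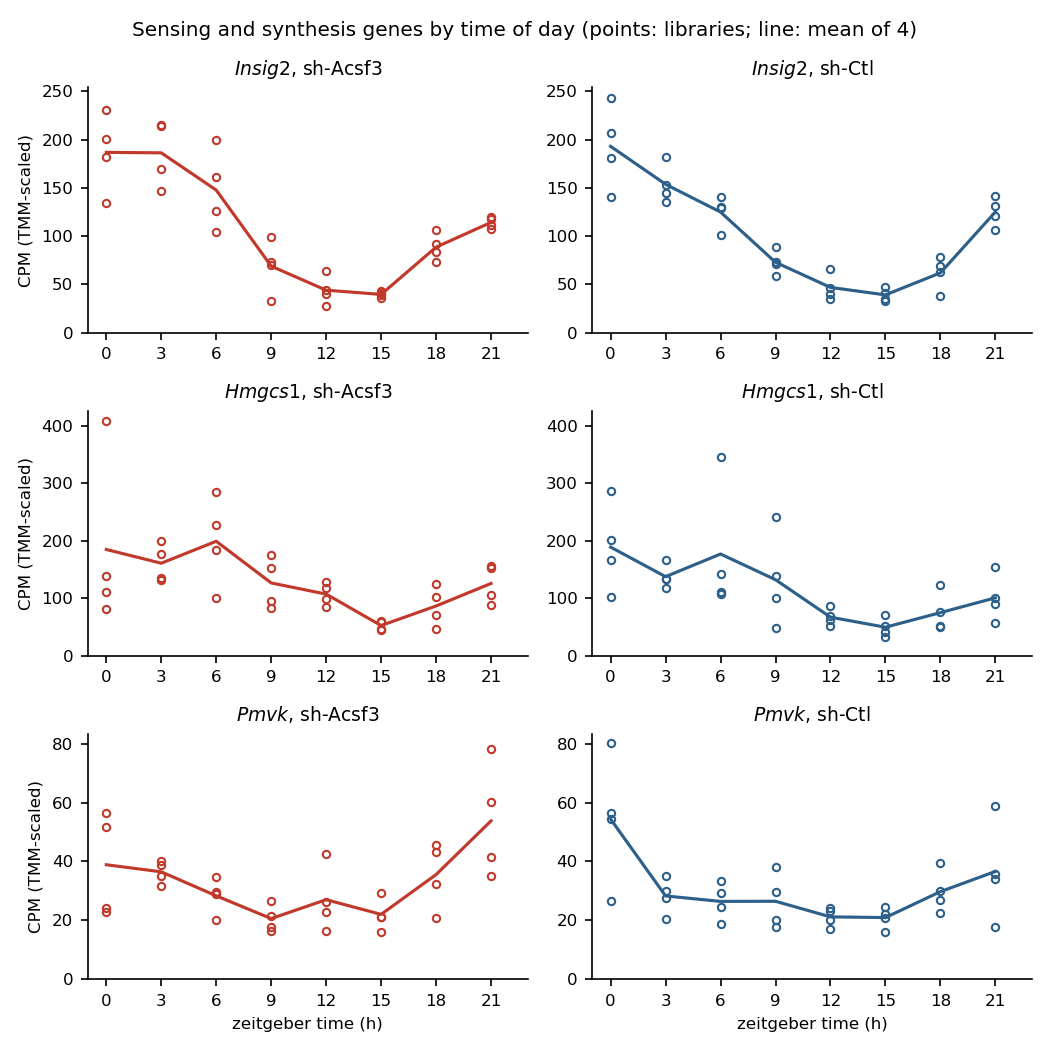
Insig2 (top), Hmgcs1 (middle) and Pmvk (bottom) by zeitgeber time in sh-Acsf3 (left) and sh-Ctl (right); y axes are TMM-scaled CPM, points are libraries and lines join the means of 4. Insig2 means ran between 39.6 and 187 CPM in sh-Acsf3 and between 39.1 and 193 CPM in sh-Ctl, and Hmgcs1 libraries of 1 time spread as widely as 81.2 to 408 CPM.

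The upstream bases of Hmgcs1 and Insig2, the synthesis and the sensing gene with the largest amplitudes, are shown with the letters of known SREBP2 and partner motifs in capitals. They are the 250 bases before the first RefSeq start of each gene (GRCm38.p6), Hmgcs1 at chr13:119690101-119690350 on the plus strand and Insig2 at chr1:121332590-121332839 on the minus strand. Capitals mark the sterol response element TCACNCCAC and the CCAAT box (CCAAT or ATTGG).
Hmgcs1: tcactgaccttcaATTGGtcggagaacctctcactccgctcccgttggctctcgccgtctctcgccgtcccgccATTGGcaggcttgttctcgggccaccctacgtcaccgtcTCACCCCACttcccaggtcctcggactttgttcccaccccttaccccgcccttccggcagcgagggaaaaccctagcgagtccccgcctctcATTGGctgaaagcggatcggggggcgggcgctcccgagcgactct
Insig2: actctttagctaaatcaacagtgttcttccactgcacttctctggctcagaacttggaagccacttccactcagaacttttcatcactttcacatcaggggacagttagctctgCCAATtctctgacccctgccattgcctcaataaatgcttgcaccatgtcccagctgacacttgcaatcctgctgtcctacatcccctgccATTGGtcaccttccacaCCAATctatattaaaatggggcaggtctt
Each stretch holds 3 CCAAT boxes, and Hmgcs1 holds 1 sterol response element. In the RefSeq windows, 25 of the 30 genes had at least 1 window and there were 33 windows in all. The sterol response letters were in 1 of 33, and in 1.24% of all 32851 windows. CCAAT was in the windows of 15 of 16 synthesis genes, or 78.9% of their 19 windows, against 37.4% of all windows. The E-box CACGTG was in 7 of the 33 windows (7.15% of all) and the D-box TTANGTAA in 0 of the 33 (2.32% of all). All were searched on both strands, and a match says only that the letters are there. A missing match says only that these exact letters were not in the window, and sites with other letters were not searched. No windows were found for Fdps, Fdft1, Sqle, Stard4 and Soat2.

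At single times no gene passed. Of the 232 pairs of gene and time, 0 were called, where 0.384% of all such pairs were (edgeR). At an unadjusted p below 0.05 there were 15 pairs, or 6.47%, against 8.44% over all genes, and DESeq2 and limma-voom called 0 pairs. The smallest adjusted p was 0.267, for Abcg8 at ZT12 (-0.49 ± 0.21). In 5 pairs the groups did not overlap with sh-Acsf3 the higher, which is 2.16% of pairs against 2.58% over all genes, and in 2 pairs with sh-Acsf3 the lower, 0.862% against 2.4%. These shares were near or under the background. The test of whether the difference varied over the day called 0 of the 29 genes and 0 of 10097 genes, with 0 of the 29 and 3.03% of all genes at an unadjusted p below 0.05, and DESeq2 and limma-voom also called 0 of the 29.

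ZT12 held 3 of the non-overlapping pairs, Sqle, Fdft1 and Mylip, all higher in sh-Acsf3, as were 3.4% of all genes at that time. Sqle stood at 51.6, 61.0, 62.9 and 70.4 CPM in sh-Acsf3 and at 39.1, 36.2, 39.1 and 28.3 CPM in sh-Ctl, a log2 difference of 0.81 ± 0.40. Fdft1 stood at 94.7, 95.5, 104 and 110 CPM in sh-Acsf3 and at 73.0, 84.4, 77.9 and 67.3 CPM in sh-Ctl, a difference of 0.45 ± 0.25. The ubiquitin ligase gene Mylip stood at 11.0, 10.6, 9.59 and 12.0 CPM in sh-Acsf3 and at 9.21, 7.11, 7.95 and 9.42 CPM in sh-Ctl. Their edgeR adjusted p-values were 0.378, 0.447 and 0.526. The remaining pairs were Nsdhl at ZT15 and Nr1h3 at ZT6, which were higher in sh-Acsf3, and Abca1 at ZT6 and Abcg8 at ZT15, which were lower. Exons of Fdft1 overlap those of Ctsb on the other strand in GENCODE M21, and 12 of the 30 genes overlap another gene in this way or on the same strand.

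**Figure D5:**
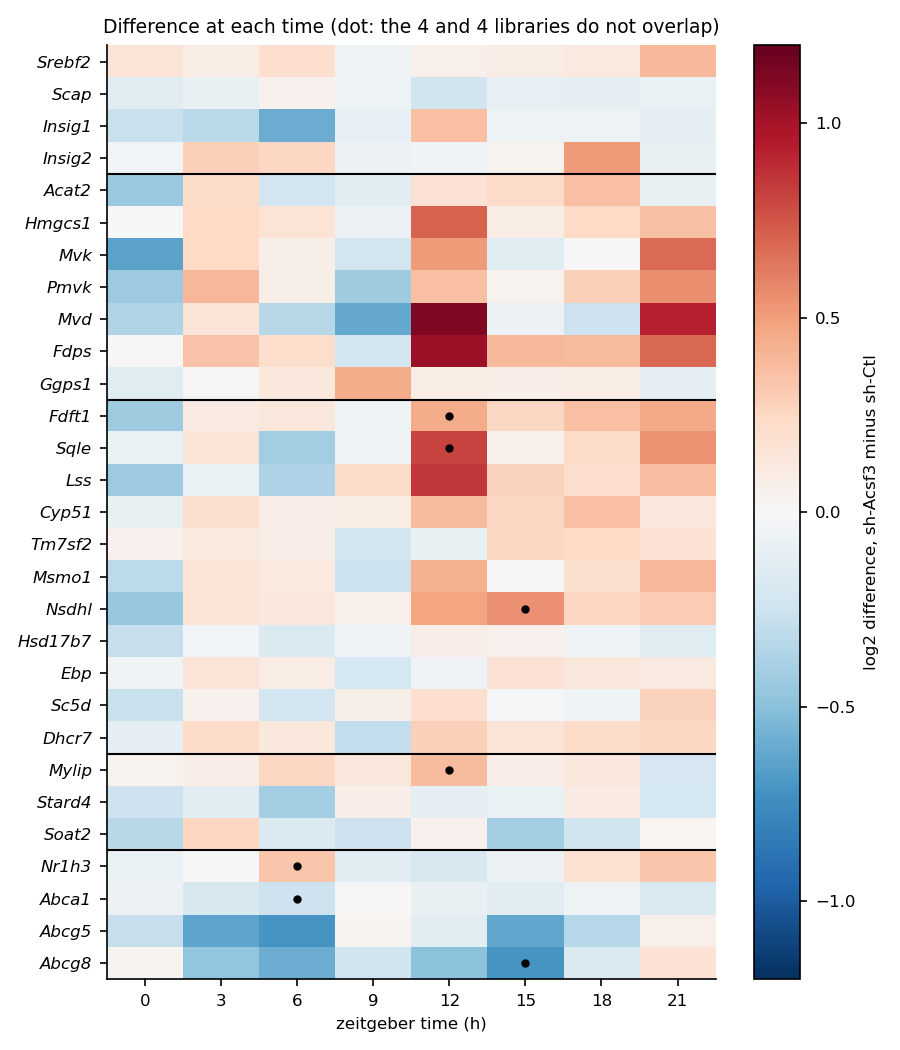
Log2 difference, sh-Acsf3 minus sh-Ctl, of each tested gene (vertical axis, by role from sensing at the top to export at the bottom) at each zeitgeber time (horizontal axis); colour gives the difference and a dot marks 4 and 4 libraries that do not overlap. Differences ran from -0.71 (Abcg8 at ZT15) to 1.12 (Mvd at ZT12), the synthesis genes are mostly red at ZT12 and ZT21 and mostly blue at ZT0, and none was called.

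Within a time the synthesis genes leaned to the same side, and no gene passed at any time. At ZT12, 16 of 18 lay above 0 with a median log2 difference of 0.40, and with any 1 library of that time left out 15 to 18 did, with medians of 0.34 to 0.48. At ZT21 it was 15 of 18 with a median of 0.33, and the median ran from 0.15 without sh-Ctl replicate 4 to 0.54 without sh-Ctl replicate 2. At ZT18 it was 15 of 18 with a median of 0.23, and the median ran from 0.13 without sh-Acsf3 replicate 2 to 0.44 without sh-Ctl replicate 2, a Saa1-high library. Thus the evening and night values stayed above 0, by amounts that depended on single libraries. At ZT15 it was 15 of 18 (median 0.12, and 0.038 without sh-Acsf3 replicate 4) and at ZT3 16 of 18 (median 0.16, and 0.048 without sh-Ctl replicate 2). At ZT0 it was 2 of 18 with a median of -0.27, which ran from -0.46 without sh-Acsf3 replicate 3 to -0.15 without sh-Ctl replicate 1, where 8 of 18 lay above 0. At ZT6 and ZT9 the median itself changed sign with 1 library, to -0.061 without sh-Acsf3 replicate 3 at ZT6 (0.081 with it) and to 0.27 without sh-Ctl replicate 3 at ZT9 (-0.099 with it). Between 48.0% and 50.2% of all genes lay above 0 at each time, so a lean of 15 or 16 of 18 was away from that share, and its members share libraries and are not independent.

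Single libraries carried much of this spread, and the synthesis genes were high or low in them together. Among sh-Acsf3 libraries, replicate 2 at ZT6 was lowest for 17 of 19 (sum 1164 CPM) and replicate 3 at ZT0 was highest for 15 of 19 (sum 2502 CPM), where 20.2% and 29.3% of all genes were. In replicate 4 of sh-Ctl at ZT21, all 19 synthesis genes were at their lowest of the 4 libraries, where 30.4% of all genes were, and they summed to 948 CPM. In replicate 4 of sh-Ctl at ZT9 it was 18 of 19, where 27.8% of all genes were, with a sum of 921 CPM. In that ZT9 group replicate 3 was highest for 17 of 19, where 24.4% of all genes were, with a sum of 2330 CPM. Within groups the coefficient of variation of Hmgcs1 had a median of 37.0%, against 4.87% from counting alone, while Ebp was at 10.1% and Abca1 at 10.3%. Apart from the sparse Idi1, Mvd at 46.3% and Fdps at 37.8% varied most within groups.

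Set against the exporters, the synthesis genes gave the widest contrast between groups at ZT6, ZT12 and ZT15. The quantity here is the mean log2 CPM of the synthesis genes minus that of Abca1, Abcg5 and Abcg8 in each library. It is given as a description with no test. It includes Abcg5 and Abcg8, which were already called lower, and its non-overlaps have no share over all genes to stand beside. At ZT12 it averaged -0.065 ± 0.14 in sh-Acsf3 and -0.75 ± 0.091 in sh-Ctl (SD, n = 4 each), and ran from -0.14 to 0.14 in sh-Acsf3 and from -0.87 to -0.68 in sh-Ctl, without overlap. At ZT15 it averaged 0.25 ± 0.075 in sh-Acsf3 and -0.35 ± 0.29 in sh-Ctl, also without overlap. At ZT6 it averaged 0.42 ± 0.57 in sh-Acsf3 and -0.090 ± 0.52 in sh-Ctl, with overlap. At ZT0 the order was the other way, 0.65 ± 0.43 in sh-Acsf3 and 0.81 ± 0.48 in sh-Ctl, and at ZT9 the means were -0.35 and -0.38. Over the day the balance was lowest at ZT9 in sh-Acsf3 and at ZT12 in sh-Ctl.

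Genes beside the pathway, taken as 6 lists with 44 tested genes, gave 5 calls upward and 1 downward. That is 11.4% higher and 2.27% lower, against 8.26% and 6.21% of all genes, so the upward share was near the background. Of 9 genes of cholesterol traffic and lysosomal release, 2 rose and 0 fell. Npc2, which hands cholesterol out of the lysosome, rose by 0.21 ± 0.046 (70.6 ± 8.95 CPM in sh-Acsf3 and 61.8 ± 6.21 CPM in sh-Ctl, edgeR adjusted p = 0.000635), and Soat1, the esterifying enzyme of macrophages and many other cells, rose by 0.66 ± 0.15 (3.38 ± 0.90 and 2.11 ± 1.11 CPM). Of 7 genes of lipoprotein handling, 2 rose: Pltp, the phospholipid transfer protein, by 0.55 ± 0.13 and the sterol transporter Abcg1 by 0.53 ± 0.085. Abcg1 stood at 9.41 ± 2.30 CPM in sh-Acsf3 and 6.68 ± 1.51 CPM in sh-Ctl; it rose where Abcg5 and Abcg8 fell. Of 7 further SREBP2 targets and electron donors 1 rose, Tmem97, a sterol-regulated protein of the endoplasmic reticulum, by 0.23 ± 0.060. Of 9 tested genes that use farnesyl diphosphate for isoprenoids 1 fell, Rabggtb, a subunit of the Rab prenyltransferase, by 0.22 ± 0.076. None of 8 genes of SREBP processing passed in edgeR. At an unadjusted edgeR p below 0.05 there were 2, Erlin1 at 0.15 ± 0.059 and Mbtps2 at 0.24 ± 0.10. The list of LXR partners and targets held 4 genes, Nr1h2, Rxra, Rxrb and Lpcat3. None of these passed, with 0 at an unadjusted edgeR p below 0.05. Abcg1 and Pltp were counted under lipoprotein handling, so the count for the LXR list leaves them out. Among the LXR partners, Rxrb was at 0.11 ± 0.11 and Nr1h2 at 0.086 ± 0.086.

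Markers of other liver cells also differed between the groups, and their counts stand beside 8.26% of all genes called higher and 6.21% called lower. Of 11 Kupffer cell and macrophage markers 6 rose, and their summed level was 147 to 464 CPM in sh-Acsf3 and 122 to 479 CPM in sh-Ctl. Of 9 stellate cell and fibroblast markers 7 rose, with sums of 344 to 710.1 CPM in sh-Acsf3 and 163 to 328.5 CPM in sh-Ctl, which did not overlap. All 5 tested lymphocyte markers of 8 listed rose, with sums of 17.1 to 149 CPM in sh-Acsf3 and 6.25 to 37.9 CPM in sh-Ctl, and Cd79a was at 0 in 61 of 64 libraries. Of 6 sinusoidal endothelium markers 1 rose (sums of 126 to 205 CPM in sh-Acsf3 and 96.5 to 203 CPM in sh-Ctl), and of 3 tested cholangiocyte markers 2 rose (58.0 to 134 CPM and 29.0 to 123.5 CPM). Of 5 hepatocyte markers 0 passed (edgeR, 0 at an unadjusted p below 0.05). Of 9 tested pancreas markers 0 passed (1 at an unadjusted edgeR p below 0.05). The pancreas sums were 1.35 to 6782 CPM in sh-Acsf3 and 0.821 to 648 CPM in sh-Ctl. Of 5 acute-phase genes 4 were called lower (sums of 50.3 to 377 CPM in sh-Acsf3 and 50.0 to 9116 CPM in sh-Ctl). The median acute-phase sum was the higher in sh-Acsf3, 130 CPM against 96.8 CPM in sh-Ctl. Saa1 exceeded 1000 CPM in 4 sh-Ctl libraries, and acute-phase calls without those libraries are not given here. The part of all these markers in the differences of the cholesterol genes was not tested.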

How the data were processed

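The files hold liver RNA from 64 libraries, 2 treatments by 8 times by 4 replicates, as a table of raw UMI counts per gene (55487 genes) that the authors deposited. Per the labels' protocols, RNA came from frozen liver and the BRB-seq pipeline of Alpern and colleagues was used. Per the submitters' processing notes, STAR and the GRCm38 (mm10) build were used. The counter, the versions, the gene annotation, the UMI settings and whether strand was used are not given in the sources used here. Groups came from the treatment, time and replicate labels.

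The counts went through edgeR 4.0.16 (R 4.3.3): filterByExpr (minimum count 10, minimum total 15), TMM scaling, and a robust quasi-likelihood fit of 16 group means (48 residual degrees of freedom) or of a 24 h cosine per treatment (58). All 10097 genes passing the filter were fitted together, Benjamini-Hochberg adjustment ran over all of them (within each time for single times), and the threshold was 0.05. The test was checked on simulated counts. Amplitudes are least-squares fits to log2 CPM with a prior count of 2. Figures used matplotlib. Tested alternatives were other scalings, filters, DESeq2 1.42.0, limma-voom 3.58.1, a replicate block and libraries left out. Of 96 replicate pairs all differed by more than counting noise (lowest chi-square per degree of freedom 2.54). Depth was 0.839 to 9.35 M UMIs, which limits genes of few CPM such as Idi1.

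The genes and lists were chosen with earlier results of these data known. Per-library values are given for genes past the threshold and for the 5 with the largest 24 h amplitude in sh-Ctl (Insig2, Abcg8, Hmgcs1, Abcg5 and Pmvk); values at single times for pairs of groups that do not overlap were chosen after they were seen, as was the GATA motif. Every gene of the set is given its averaged difference. Of the other lists, genes past the threshold are named, or otherwise those with the smallest p. Names and positions are from GENCODE M21 (55141 of 55487 gene IDs found) and RefSeq GRCm38.p6.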

Additional observations from a re-analysis of the deposited data

Results flagged for a closer look

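In 96 groups of 4 libraries checked, 3 values lay far from the other 3 of their group, where chance alone picks out about 1 in 20 groups (5%). Hmgcs1 stood at 345.9 CPM in replicate 1 of sh-Ctl at ZT6, against 108 to 143 CPM in the other 3 libraries. The summed synthesis genes stood at 1248 CPM in replicate 3 of sh-Acsf3 at ZT18, against 1729 to 1786 CPM in the other 3. They stood at 2029 CPM in replicate 2 of sh-Ctl at ZT18, against 1277 to 1312 CPM in the other 3, and this library also had Saa1 at 2257 CPM.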

How the results depend on the processing

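The count of 2 genes called in the averaged comparison was 1 with library size alone as the scaling, 1 without the libraries high in pancreas transcripts, 6 with no gene filter (3 higher and 3 lower) and 0 to 3 without 1 replicate number of every group. With no gene filter, 9 pairs of gene and time (6 higher and 3 lower) and 4 genes of the treatment by time interaction were called, where 0 were called with the filter. In that fit SEs were about 0.06, against 0.10 to 0.15 with the filter, for the genes it added, Insig1 (-0.16), Hmgcs1 (0.20), Fdps (0.34) and Nsdhl (0.17), and the cause was not tested. The count of 12 rhythmic genes in sh-Ctl was 7 to 12 without 1 replicate number. Of 435 recomputed differences of single genes, 407 kept their direction and side of the threshold, 5 fell short of it, 7 newly passed and 16 reversed, all 16 not called either way. With 1 replicate number left out of every group, Acat2 ran from -0.11 to 0.12, Mvk from -0.010 to 0.11, Pmvk from -0.067 to 0.24, Mvd from -0.20 to 0.32, Lss from -0.082 to 0.31, Msmo1 from -0.042 to 0.16, Sc5d from -0.18 to 0.16 and Dhcr7 from -0.016 to 0.20, each lowest without replicate 4. Hsd17b7 ran from -0.13 to 0.0071 (without replicate 1) and Nr1h3 from -0.023 (without replicate 3) to 0.10. Acat2 was at -0.0012 with no gene filter and -0.010 without the shallowest library. Sc5d was at -0.013 with no gene filter, -0.012 without the shallowest library and -0.032 without the libraries high in pancreas transcripts. With library size alone Abcg5 was at -0.27 (edgeR adjusted p = 0.0948).

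Replicate numbers were not taken to pair the samples: of 32 same-number pairs, 6 had a correlation of deviations over 0.1 (range -0.16 to 0.26). With the replicate block 3 genes were called, Abca1 (-0.12, edgeR adjusted p = 0.0431), Abcg5 and Abcg8, and the additive model of treatment and time gave Abca1 an adjusted p of 0.0460. Low depth and the spread within groups limit single-time tests of genes near 10 CPM, such as Mvd and Mylip.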
